A study of Mus musculus with 35 samples.

Results

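The MHC class II pathway genes were followed through maps of 3 histone marks in mouse bone marrow cells. The 10 genes were taken as a listed set out of 21887 protein-coding genes: the class II chains and their helpers on chromosome 17 (H2-Aa, H2-Ab1, H2-Eb1, H2-DMa, H2-DMb1, H2-DMb2, H2-Oa and H2-Ob), the invariant chain gene Cd74 on chromosome 18 and the transactivator gene Ciita on chromosome 16. All mice were of the C57BL/6 strain. The groups were lineage-negative hematopoietic stem and progenitor cells (HSPC) of DM mice, of Npm1c mice and of Flt3-ITD mice, neutrophils of WT mice, and HSPC of WT mice, which served as the reference for the other groups. The label DM is not spelled out by the submitters and is read here as carrying both Npm1c, a mutant form of the nucleolar protein gene Npm1, and Flt3-ITD, an internal tandem duplication in the receptor kinase gene Flt3. The labels give neither age nor zygosity nor the way the alleles were switched on. HSPC were enriched by depletion of lineage-positive cells and neutrophils by an isolation kit, so each library is a mixed population that retains whatever cells passed the kit. There were 2 libraries for every mark of every group, described by the submitters as biological replicates.

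MHC class II molecules are pairs of an alpha and a beta chain that show peptides from the endosome to CD4+ T cells. The invariant chain occupies the groove during assembly, H2-DM helps to exchange its remnant for peptide, and H2-O restrains H2-DM. Transcription of these genes depends on CIITA, which does not bind DNA by itself but is recruited by RFX and NF-Y bound at the X and Y boxes of class II promoters. Dendritic cells, B cells and macrophages are the classical users of the pathway. In chromatin, H3K27ac marks active promoters and enhancers, H3K4me1 marks enhancers and promoter flanks, and H3K4me3 marks promoters.

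Promoter sequences were read for the 7 members with an entry in the RefSeq table of GRCm38.p6, the assembly also named mm10: H2-Aa, H2-Eb1, H2-Ob, H2-Oa, H2-DMb1, H2-DMb2 and H2-DMa, the last with 2 entries. H2-Ab1, Cd74 and Ciita are named only. The 300 bases around each start were searched on both strands for the letters GNAAC, from the core of the X box, followed after 15 to 40 bases by ATTGG, the Y box. The letters and spacing were chosen after the sequences had been read. The pair was found on the gene's own strand in 5 of the 7 genes, with 25 to 28 bases between its parts, and on the other strand in none. Counted on either strand, it was in 4.23% of all 32851 promoter entries of the table. GNAAC alone was in 84.8% and ATTGG alone in 37.4% of them. The following stretches are shown so that chains whose H3K27ac rose in DM HSPC (H2-Aa, H2-Eb1 and H2-Ob) can be set beside members that did not pass (H2-Oa and H2-DMb1). Capitals mark GNAAC and ATTGG, 5′ to 3′ on the gene's strand.
H2-Aa: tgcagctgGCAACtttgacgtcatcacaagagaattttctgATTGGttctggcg
H2-Eb1: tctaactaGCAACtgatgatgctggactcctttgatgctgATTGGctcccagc
H2-Ob: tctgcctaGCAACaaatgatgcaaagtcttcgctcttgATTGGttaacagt
H2-Oa: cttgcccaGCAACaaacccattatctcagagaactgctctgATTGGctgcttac
H2-DMb1: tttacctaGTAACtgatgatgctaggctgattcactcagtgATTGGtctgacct

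The H2-Aa stretch is chr17:34287859-34287912 on the minus strand. The plus-strand stretches are chr17:34305768-34305820 (H2-Eb1), chr17:34238810-34238860 (H2-Ob), chr17:34092295-34092348 (H2-Oa) and chr17:34153089-34153142 (H2-DMb1). The pair was not in the windows read for H2-DMa and H2-DMb2, where no library had an H3K4me3 peak. H3K4me3 regions with a peak in all 10 libraries, at chr17:34135422-34136651 and chr17:34142693-34144242, lay outside these windows and were not searched. Of the H2-Aa promoter window, H3K27ac peaks covered 96 and 66 bases in DM HSPC and 0 in the other 8 libraries. Of the H2-Eb1 window they covered 150 and 0 bases in DM HSPC and 0 in the other 8. H2-Ob had 144 and 76 bases covered in DM HSPC, 0 and 14 in Npm1c HSPC and 0 in the other 6 libraries. At H2-Oa 128 and 126 bases were covered in DM HSPC, 0 and 110 in Npm1c HSPC and 44 and 107 in Flt3-ITD HSPC. WT HSPC had 0 and 27 bases covered there, and neutrophils had none. The H2-DMb1 window had no H3K27ac in any library. The first H2-DMa window was covered at all 300 bases in 8 of the 10 libraries, and at 218 bases in DM replicate 2 and 140 in neutrophil replicate 2.

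The value for a gene was the number of base pairs of its span, with 10 kb on each side (5 kb for H3K4me3), that lay under peaks. H3K27ac lists held 21704 to 30143 peaks of 200 to 11673 bp. H3K4me1 lists held 102907 to 131179 peaks and H3K4me3 lists 30295 to 39307, every one 1000 bp wide. The lists carry no read counts, so depth is unknown. The 2 DM lists for H3K27ac stood apart from each other, with 20.3 Mb covered in replicate 1 and 13.5 Mb in replicate 2, against 15.2 and 15.3 Mb in WT HSPC. As a check of the labels, 10 of 10 neutrophil markers had more H3K27ac in neutrophils than in WT HSPC.

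In DM HSPC the classical class II chains and the invariant chain gene gained H3K27ac that WT HSPC lacked or nearly lacked. Of the 9 members with enough H3K27ac peaks to be tested, 5 rose in DM against WT HSPC and none fell, while 6.94% of all 13637 tested genes rose and 6.04% fell. With no minimum of covered libraries 3 members rose, and 699 of 21887 genes were called in either direction. The median log2 difference was 0.94 over the 9 members and 0.02 over all tested genes. Differences are in log2(bp + 500) and their size depends on the 500 bp added where a group is listed at 0. In bulk chromatin, more cells carrying a mark and more of the mark per cell cannot be told apart.

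H2-Aa (chr17:34282744-34287823, minus strand), the alpha chain of the I-A molecule, had 6.79 and 2.93 kb under H3K27ac peaks in DM HSPC and none in either WT library. The difference was 3.32 (SE 0.41; limma, Benjamini-Hochberg adjusted p = 0.00417). H2-Ab1 (chr17:34263227-34269418), the I-A beta chain, had 5.64 and 3.84 kb in DM HSPC, against 0.398 and 0.322 kb in WT HSPC (difference 2.59, SE 0.21; adjusted p = 0.00109). At both I-A chains each DM library lay above each WT library. H2-Eb1 (chr17:34305867-34316674, plus strand), the I-E beta chain, had 3.19 and 0.857 kb in DM HSPC and no peak in WT HSPC (difference 2.16, SE 0.50; adjusted p = 0.0314). In DM replicate 2, 0.657 of those 0.857 kb lie in a region that the windows of H2-Aa and H2-Eb1 share. Among the other groups only Npm1c replicate 2 had a peak in the H2-Eb1 window, with 0.649 kb. H2-Eb1 thus met the minimum of 2 libraries with peaks, needed for testing, only through DM HSPC. Cd74 (chr18:60803849-60812652), whose product is the invariant chain, had 5.46 and 4.37 kb in DM HSPC, against 0.360 and 0.236 kb in WT HSPC (difference 2.76, SE 0.40; adjusted p = 0.00737).

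For these 4 genes both DM libraries lay above all 8 other libraries, which 3.66% of the tested genes did. H2-Ob (chr17:34238905-34245908, plus strand), the beta chain of H2-O, was the fifth to rise, with 2.32 and 1.37 kb in DM HSPC, against 0.760 and 0.706 kb in WT HSPC (difference 0.90, SE 0.19; adjusted p = 0.0247). DM replicate 2, at 1.366 kb, lay below Npm1c replicate 2, at 1.369 kb. Without DM replicate 1, the longer list, H2-Aa, H2-Ab1, Cd74 and H2-Ob still passed and H2-Eb1 did not (1.44; adjusted p = 0.0804). H2-Eb1 also missed the threshold over its span alone (0.80; adjusted p = 0.37) and without either Flt3-ITD or neutrophil library (adjusted p from 0.0502 to 0.0552). Without either WT library only H2-Aa and H2-Ab1 passed, with Cd74 at adjusted p = 0.0577 without WT replicate 1 and 0.0646 without WT replicate 2.

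**Figure D1:**
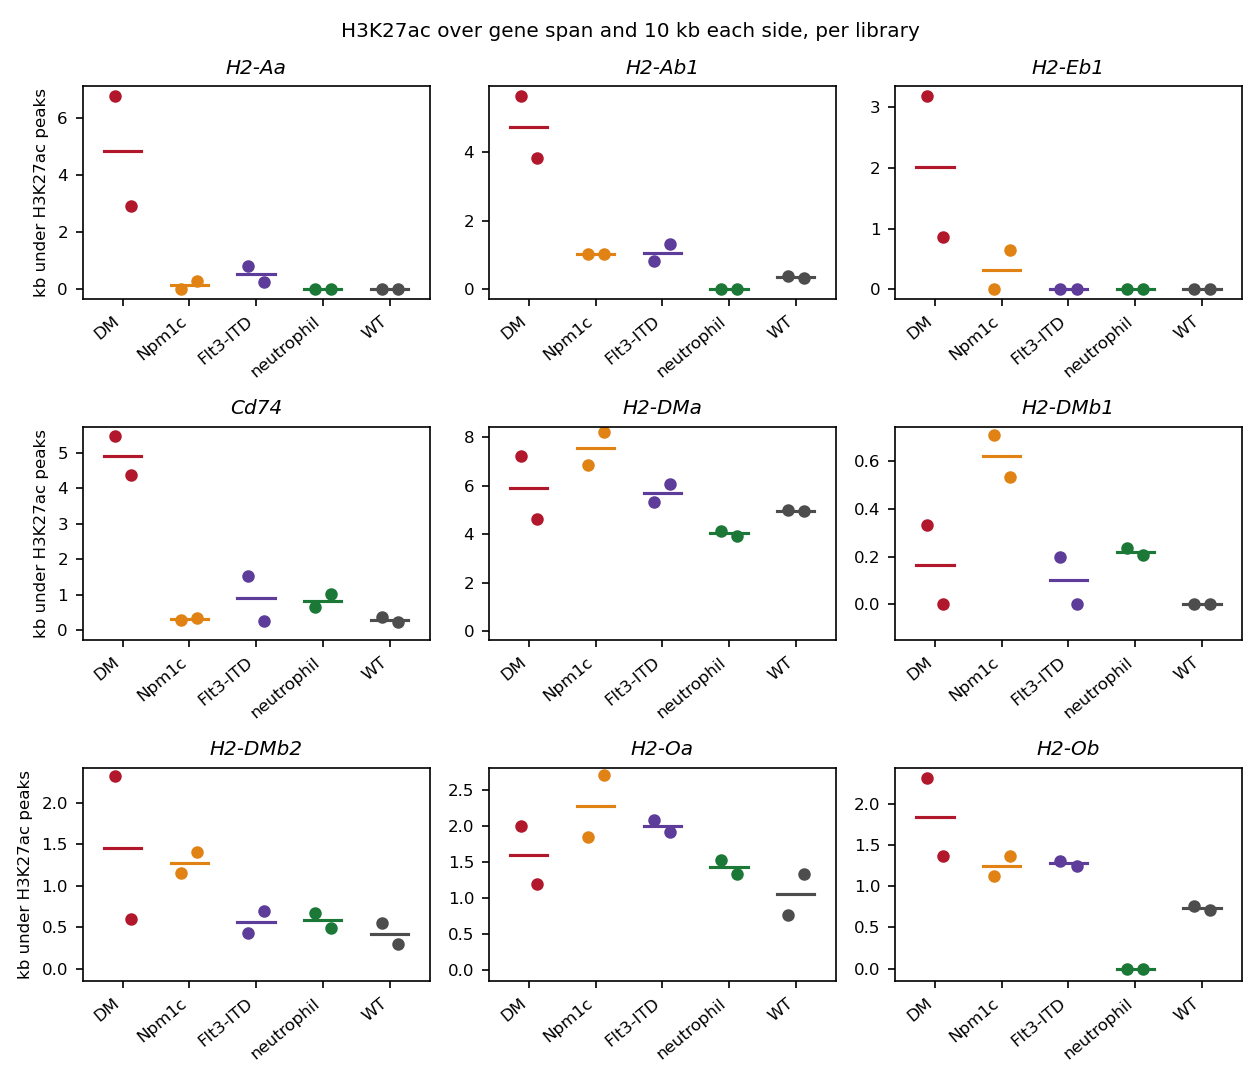
Kilobases under H3K27ac peaks over each gene span and 10 kb on each side; each point is a library, each line the mean of 2 libraries, and vertical scales differ between genes. At H2-Aa, H2-Ab1, H2-Eb1 and Cd74 both DM points lie above every other point, whereas at H2-DMa, H2-DMb1, H2-DMb2, H2-Oa and H2-Ob they overlap those of other groups.

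The peptide-loading helpers did not follow the same pattern in full. H2-DMa (chr17:34119693-34139101, plus strand), the alpha chain of H2-DM, carried H3K27ac in every library, with 7.22 and 4.62 kb in DM HSPC and 4.99 and 4.97 kb in WT HSPC. The H2-DMa difference of 0.20 had an interval of -0.26 to 0.66 (95%), and the groups overlapped. Most of this coverage lay in a region at the lower end of the span, chr17:34119497-34124171. It held 4086 and 3533 bp in DM HSPC and 3560 and 3714 bp in WT HSPC. Which gene that region serves was not tested. Nearer the upper end, chr17:34135582-34136356 held 769 and 284 bp in DM HSPC and 328 and 296 bp in WT HSPC. That region held 389 and 549 bp in Npm1c HSPC, 0 and 367 bp in Flt3-ITD HSPC and none in neutrophils. H2-DMb2 (chr17:34143229-34151553, plus strand) had 2.32 and 0.592 kb in DM HSPC, against 0.546 and 0.296 kb in WT HSPC (0.94; adjusted p = 0.181). H2-DMb1 (chr17:34153191-34160229, plus strand) had 0.331 and 0 kb in DM HSPC and no peak in WT HSPC (0.37; adjusted p = 0.422). H2-DMb1 and H2-DMb2 are near-identical beta chain copies that lie 1637 bp apart, so reads and windows may be divided between them and their values are uncertain. Over the H2-DMb2 span itself no H3K27ac lay in DM or WT HSPC. The H2-DMb2 window shares 15873 bp with that of H2-DMa and 18363 bp with that of H2-DMb1. The 0.331 kb at H2-DMb1 lay at chr17:34153791-34154121 and counted for H2-DMb2 as well. Values and calls at these neighbours are thus not independent of each other. H2-Oa (chr17:34092379-34095234, plus strand), the H2-O alpha chain, had 1.99 and 1.20 kb in DM HSPC, against 0.766 and 1.33 kb in WT HSPC (0.43; adjusted p = 0.321). Over the H2-Oa span alone DM HSPC had 0.670 and 0.509 kb, against 0 and 0.221 kb in WT HSPC and 0.307 and 0.528 kb in Flt3-ITD HSPC. Without DM replicate 2, the shorter list, H2-DMa (0.49; adjusted p = 0.0437) and H2-DMb2 (1.63; adjusted p = 0.01) also passed. Ciita (chr16:10480014-10531064) had no H3K27ac peak in its window in any of the 10 libraries and was not tested for this mark.

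The gained acetylation was not spread evenly over the locus. Peaks of the 10 lists were merged into regions, and a region was called gained when both libraries of a group and neither library of the reference held a peak of at least 1 bp in it. Of 40 H3K27ac regions at the members, 12 were gained in DM against WT HSPC (30.0%) and none was lost, against 7.54% gained and 6.55% lost of all 48396 regions. A single region has no test with 2 libraries against 2. Of the 12, 11 lie on chromosome 17, the first ending 5685 bp before the H2-Ab1 span and the last ending 149 bp before the H2-Eb1 span, and the other ends 273 bp before the Cd74 span. The windows of H2-Oa, H2-DMa, H2-DMb1, H2-DMb2, H2-Ob and Ciita held no gained region.

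At H2-Ab1, 3 gained regions lie on the side toward H2-Ob (chr17:34256736-34257542, chr17:34257925-34258988 and chr17:34261806-34263050) and the fourth covers the start of the span (chr17:34263180-34264274). At H2-Aa, a region of 1368 bp covers the promoter end of the gene (chr17:34286497-34287864) and a shorter one follows it at chr17:34288069-34288509. Between the H2-Aa and H2-Eb1 spans, 4 more form a run from 34292339 to 34297277, and the last, chr17:34305009-34305718, lies just before the H2-Eb1 promoter end. Over that whole intergenic interval of 18043 bp, DM HSPC had 6.21 and 2 kb of H3K27ac, Npm1c HSPC had 0 and 0.299 kb, and the other 6 libraries had none. In the 17318 bp between H2-Ob and H2-Ab1, DM HSPC had 4.21 and 2.02 kb and the other 8 libraries had none. At Cd74 peaks over the gene itself were also wider. A region at chr18:60803840-60808532 held a peak in all 10 libraries, with 4.69 and 3.93 kb in DM HSPC, against 0.360 and 0.236 kb in WT HSPC.

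**Figure D2:**
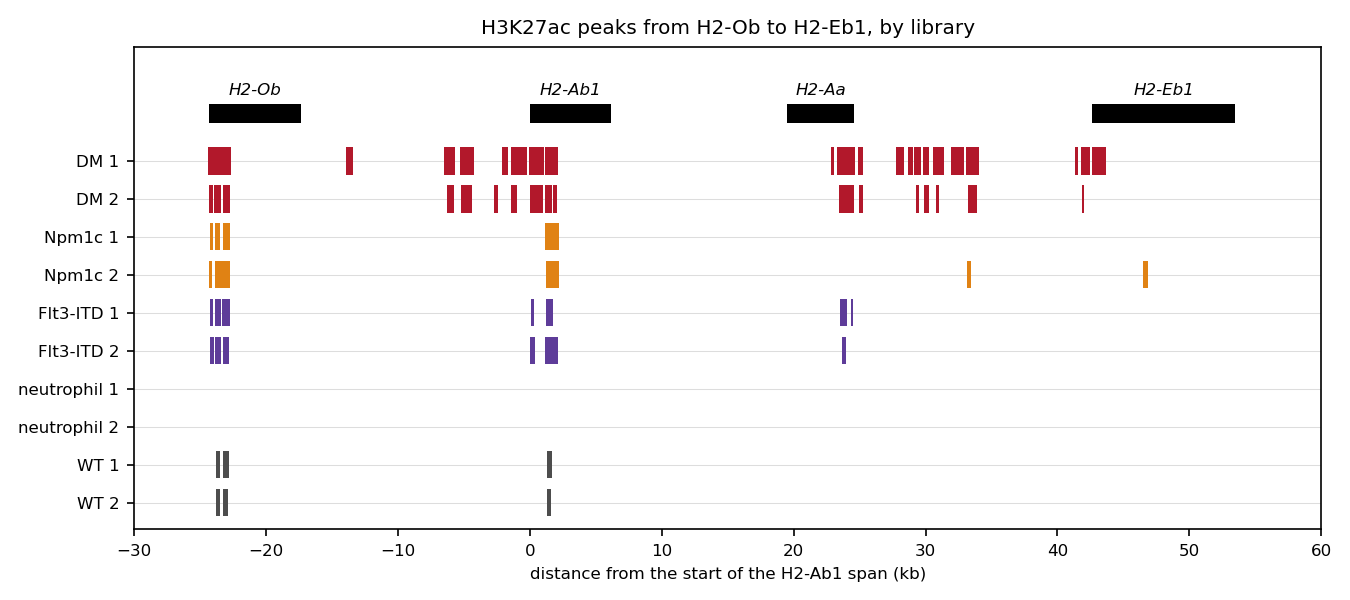
H3K27ac peaks of each library from H2-Ob to H2-Eb1, with distance from the start of the H2-Ab1 span in kb on the horizontal axis and black boxes for gene spans. The DM libraries hold peaks between H2-Ob and H2-Ab1 and between H2-Aa and H2-Eb1, where WT HSPC hold none, and neutrophils hold none in the whole interval drawn.

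The gained regions differed among themselves in the other marks. In WT HSPC, 6 of the 12 had an H3K4me1 peak in both libraries, against 74.0% of all 3647 regions gained in DM HSPC, and 2 of 12 (16.7%) had H3K4me3, against 42.2%. In DM HSPC H3K4me3 was in both libraries at 2 of 12 as well, against 70.3% of all gained regions. The region over the H2-Aa promoter end had both marks in both WT libraries. The shared region at chr17:34296331-34297277, between H2-Aa and H2-Eb1, held both marks in all 10 libraries. In 9 of the 12 (75.0%) no peak was listed in any of the 6 libraries of Npm1c HSPC, Flt3-ITD HSPC and neutrophils, against 22.3% of all gained regions.

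Some markers of cells that use class II molecules also rose in DM against WT HSPC. Of all tested genes, 6.94% had more H3K27ac in DM than in WT HSPC and 6.04% had less. Of 7 tested dendritic cell markers of 11, 2 had more H3K27ac in DM than in WT HSPC: Tcf4, a transcription factor of plasmacytoid dendritic cells, and Cst3, a protease inhibitor. Their whole list summed to 32.7 and 15.5 kb in DM HSPC, against 13.8 and 12.96 kb in WT HSPC, with Cd209a and Irf4 at 0 in both DM libraries. In H3K4me1, 4 of the 11 dendritic cell markers rose in DM against WT HSPC (Cd209a, Cst3, Irf4 and Itgax) and 1 fell (Zbtb46), where 1.91% of all tested genes rose and 16.2% fell. Cd209a had 6 and 6 kb of H3K4me1 in DM HSPC, against 1 and 1 kb in WT HSPC, and Irf4 had 9 and 8 kb in DM HSPC, against 3 and 5 kb in WT HSPC. By H3K4me1, 1 of 10 monocyte and macrophage markers rose (Fcgr1), as did 1 of 10 B cell markers (Pax5). Of 6 tested T and NK cell markers 1 rose (Cd8a), and none in these lists fell. In H3K4me3, 2 of 11 dendritic cell and 2 of 10 monocyte and macrophage markers rose. Of 10 B cell markers 1 rose and 2 fell, where 4.47% of all tested genes rose and 3.7% fell. No H3K4me3 call held with the spread floor of 1 peak given below. In H3K27ac, 3 of 8 tested monocyte and macrophage markers rose (Csf1r, Ms4a6c and Cd14). That list summed to 22.4 and 9.24 kb in DM HSPC, against 4.04 and 3.19 kb in WT HSPC, with Adgre1 among the markers at 0 in both DM libraries. In DM against Flt3-ITD HSPC none of these 8 passed (limma, 2 at unadjusted p under 0.05), and in DM against Npm1c HSPC 2 rose. Of 6 tested B cell markers none passed (limma; 0 at unadjusted p under 0.05), and the list summed to 6.21 and 3.39 kb in DM HSPC, against 3.16 and 2.73 kb in WT HSPC. Ebf1, Ms4a1, Cd22 and Blk were at 0 in both DM libraries. The part of these cell types in the class II values was not tested. By H3K27ac, of 10 stem and progenitor markers Hoxa9, Meis1 and Erg rose and Gata2 and Kit fell. Of 10 neutrophil markers 1 rose (Csf3r), a share near the 6.94% of all tested genes. Of 4 tested T and NK cell markers none passed in H3K27ac (limma; 1 at unadjusted p under 0.05), and 4 of 5 tested erythroid markers fell, where 6.04% of all tested genes fell.

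DM HSPC also differed from each single mutant at the classical chains. Against Npm1c HSPC, 4 members rose and 1 fell. Of all tested genes 3.01% rose and 30.9% fell, with a median difference of -0.31. H2-Aa differed by 2.98 (adjusted p = 0.0027), with 0 and 0.299 kb in Npm1c HSPC. Cd74 differed by 2.72 (adjusted p = 0.00356), with 0.301 and 0.333 kb in Npm1c HSPC. H2-Ab1 differed by 1.75 (adjusted p = 0.00171) and H2-Eb1 by 1.56 (adjusted p = 0.047). H2-DMb1 went the other way, at -0.80 (adjusted p = 0.0496), with 0.709 and 0.536 kb in Npm1c HSPC. Against Flt3-ITD HSPC, H2-Aa rose by 2.33 (adjusted p = 0.0328), H2-Ab1 by 1.74 (adjusted p = 0.00919) and Cd74 by 2.11 (adjusted p = 0.0451), and none fell, where 0.631% of genes rose and 1.86% fell. H2-Eb1, with no peak in Flt3-ITD HSPC, differed by 2.16 and missed the threshold (adjusted p = 0.0766). H2-Aa, H2-Ab1 and Cd74 passed against Npm1c HSPC whichever library was left out, whereas H2-Eb1 and H2-DMb1 did not. Against Flt3-ITD HSPC, only H2-Ab1 passed whichever library was left out; H2-Aa was lost without Flt3-ITD replicate 2 or either WT or neutrophil library, and Cd74 without any library other than Flt3-ITD replicate 1. With the replicate number as a block, with 100 bp added or with no coverage filter, H2-Ab1 was the 1 member that passed against Flt3-ITD HSPC, and over the gene spans alone none did. By regions, 11 of 40 (27.5%) were gained in DM against Npm1c HSPC and 10 (25.0%) in DM against Flt3-ITD HSPC, against 3.65% and 2.75% of all regions. These comparisons share the DM libraries with the comparison against WT HSPC.

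In the test of whether the Flt3-ITD difference was of another size with Npm1c than without, Cd74 was the member that passed (2.07, SE 0.57; adjusted p = 0.0471), where 0.462% of genes were called higher and 17.5% lower. This call was lost in 13 of 18 alternative settings, with adjusted p from 0.00729 to 0.145. H2-Aa had 1.99 (adjusted p = 0.0515), H2-Ab1 0.90 (0.0675) and H2-Eb1 1.56 (0.142). Negative values were found at H2-Oa, with -1.13 (adjusted p = 0.0629), H2-DMb1, with -1.04 (0.0823), and H2-DMa, with -0.52 (0.196). Without DM replicate 1 these 3 were called lower, at -1.40, -1.41 and -0.82, and no member was called higher. The median gene lay at -0.46 in this contrast.

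**Figure D3:**
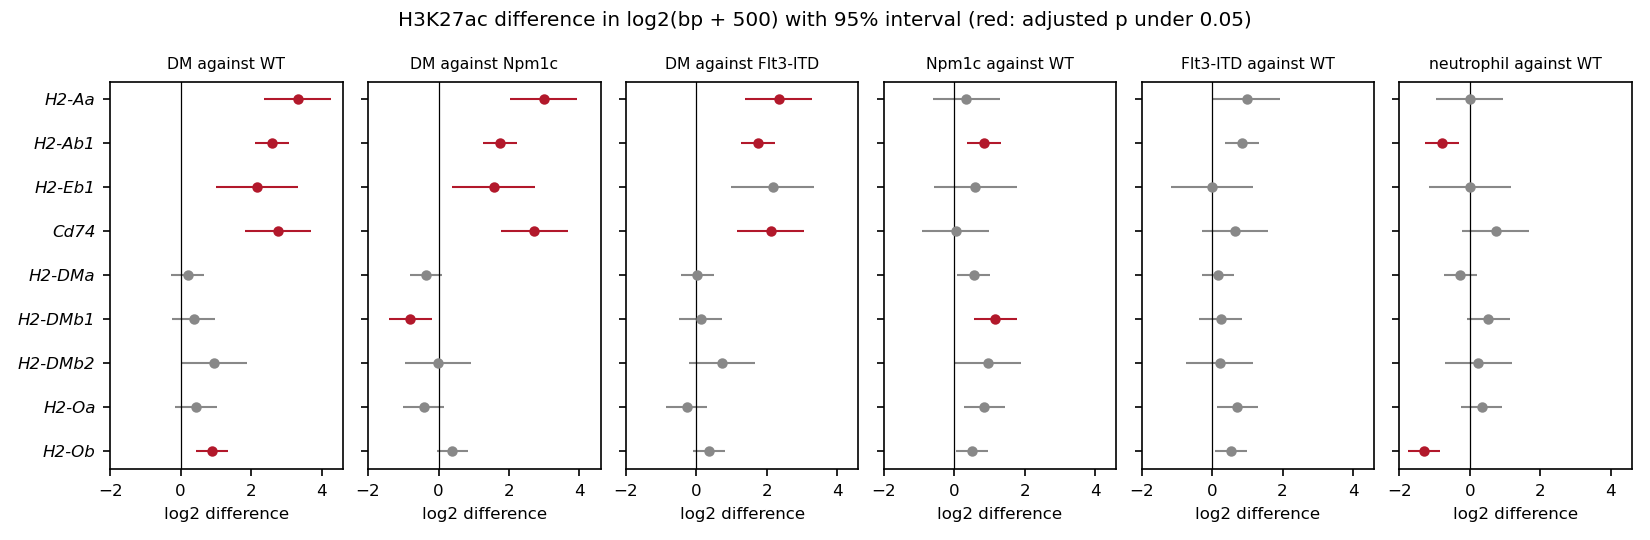
Difference in log2(bp + 500) of H3K27ac at 9 members in 6 comparisons, with 95% intervals; red points passed the threshold of adjusted p under 0.05. H2-Aa, H2-Ab1 and Cd74 are red in all 3 DM comparisons, and no member is red for Flt3-ITD against WT.

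At H2-Aa, H2-Ab1, H2-Eb1, H2-Ob and Cd74 the estimated differences of both single mutants from WT HSPC were smaller than that of DM HSPC. At H2-DMa, H2-DMb1, H2-DMb2 and H2-Oa those of Npm1c HSPC were larger (0.55, 1.16, 0.96 and 0.85), and Flt3-ITD HSPC had a larger one at H2-Oa (0.71). Tested directly in DM against Npm1c HSPC, only H2-DMb1 of these passed, and H2-DMb2 differed by -0.02. H2-Oa did not pass in DM against Flt3-ITD HSPC. In Npm1c HSPC, 2 of 9 members rose in H3K27ac, where 17.7% of tested genes rose, 0.022% fell and the median difference was 0.36. H2-Ab1 had 1.031 and 1.029 kb in Npm1c HSPC (0.83; adjusted p = 0.0369), and H2-DMb1 had 0.709 and 0.536 kb (1.16; adjusted p = 0.0303), with no peak at H2-DMb1 in WT HSPC. Neither passed once each library was centred on its median, nor without either WT, Npm1c or neutrophil library, while 6 members passed without either DM library. Npm1c HSPC gained 3 of 40 regions (7.5%), against 7.91% of all regions: 1 at chr17:34136407-34136907 in the windows of H2-DMa and H2-DMb2, and 2 at H2-DMb1. The H2-DMb1 regions, at chr17:34164348-34164767 and chr17:34165040-34165492, lie beyond the gene's upper end. In Flt3-ITD HSPC no member passed (limma; 4 at unadjusted p under 0.05), where 0.103% of genes were called. H2-Aa had 0.808 and 0.253 kb in Flt3-ITD HSPC (0.99; adjusted p = 0.307) and H2-Ab1 0.816 and 1.32 kb (0.85; adjusted p = 0.144), both above WT HSPC in each library. Flt3-ITD HSPC gained 2 regions, and both were also gained in DM HSPC: the one at the H2-Ab1 start and the one at the H2-Aa promoter end. None was lost. Across all regions 4.43% were gained and 2.42% lost in Flt3-ITD HSPC.

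Neutrophils had less H3K27ac than WT HSPC at 2 of 9 members, where 23.2% of tested genes fell and 13.2% rose. H2-Ob had no peak in neutrophils, against 0.760 and 0.706 kb in WT HSPC (-1.30; adjusted p = 0.0023). H2-Ab1 had none in neutrophils, against 0.398 and 0.322 kb in WT HSPC (-0.78; adjusted p = 0.0219). H2-Aa and H2-Eb1 had no peak in either cell type. Neutrophils lost 3 of 40 regions (7.5%) and gained 1 (2.5%), against 9.23% and 16.3% of all regions. Cd74 had 0.644 and 1.02 kb in neutrophils, against 0.360 and 0.236 kb in WT HSPC (0.73; adjusted p = 0.2). Without any 1 of the WT or neutrophil libraries only H2-Ob passed, and Cd74 passed as well without either Flt3-ITD library.

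H3K4me1 covered all 10 members in every library and moved at few of them. In DM against WT HSPC, Cd74 rose and no member fell, where 1.91% of 17381 tested genes rose and 16.2% fell. Cd74 had 5 kb in each DM library, against 1 kb in each WT library, a difference of 1.87 (SE 0.29; adjusted p = 0.00906). The other groups lay between, with 4 and 2 kb in Npm1c HSPC, 3 and 3 kb in Flt3-ITD HSPC and 2 and 3 kb in neutrophils. None of those differences from WT HSPC passed. The DM value missed the threshold without WT replicate 2 (adjusted p = 0.056) and over the span alone (0.77; adjusted p = 0.346). Of the 3 gained regions at Cd74, 2 lie 6164 and 8181 bp before the span. At H2-Aa and H2-Ab1, where H3K27ac rose, H3K4me1 did not pass over the whole windows. H2-Aa had 4 and 4 kb in DM HSPC, against 3 and 4 kb in WT HSPC, with an interval of the difference of -0.26 to 0.62. Over its span alone H2-Aa had 2 and 1.997 kb in DM HSPC, against 1 and 0.953 kb in WT HSPC, and passed (0.76), the 1 member to do so in that setting. A region over the H2-Aa span, chr17:34282990-34284031, was held by both DM libraries and by none of the other 8. H2-Ab1 had 3 and 4 kb in DM HSPC, against 4 and 3 kb in WT HSPC, with an interval of -0.58 to 0.58. The other 7 members differed by 0.14 (H2-Ob) to 0.48 (H2-DMb2) and did not pass; at H2-Eb1 DM HSPC had 7.96 and 7 kb, against 5.88 and 5.97 kb in WT HSPC (0.31; adjusted p = 0.394). Of 76 H3K4me1 regions at the members, 11 were gained (14.5%) and 4 lost (5.26%) in DM HSPC, against 5.4% and 12.4% of all regions.

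Ciita has the longest span of the members (51051 bp). With no scaling to window length, it carried the most H3K4me1 in its window in DM, Flt3-ITD and WT HSPC. It had 14 and 13 kb in DM HSPC, 5 and 7 kb in Npm1c HSPC, 16 and 12 kb in Flt3-ITD HSPC, 4 and 6 kb in neutrophils and 12 and 12 kb in WT HSPC. Npm1c HSPC and neutrophils thus lay below all libraries of the other 3 groups. The fall in neutrophils against WT HSPC was -1.21 (adjusted p = 0.0164), where 4.67% of genes rose and 18.6% fell. DM exceeded Npm1c HSPC by 1.12 (adjusted p = 0.029), where 3.1% of genes rose and 12.1% fell. Npm1c differed from WT HSPC by -0.96 and missed the threshold (adjusted p = 0.391). The DM against Npm1c call was lost without either WT library, either DM library or Npm1c replicate 1 (adjusted p from 0.0598 to 0.128) and with the replicate number as a block (adjusted p = 0.0514). The neutrophil call was lost without either WT library or neutrophil replicate 1 (adjusted p from 0.0726 to 0.0819) and over the span alone (-0.88; adjusted p = 0.113). For H3K4me1, no member passed in Npm1c against WT HSPC (limma; 2 at unadjusted p under 0.05, 0.334% of genes called), Flt3-ITD against WT HSPC (1 and 1.7%), DM against Flt3-ITD HSPC (0 and 9.33%) or the interaction (1 and 3.35%).

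H3K4me3 peaks were listed at 8 of the 10 members in every library, and at H2-Aa and H2-DMb1 in every library but those of neutrophils. In DM against WT HSPC, 2 members rose and 1 fell, where 4.47% of 16138 tested genes rose and 3.7% fell. Ciita held 3 and 4 peaks in DM HSPC, against 1 and 1 in WT HSPC (1.40, SE 0.25; adjusted p = 0.0281), with 2 and 1 in Npm1c HSPC, 3 and 3 in Flt3-ITD HSPC and 1 and 1 in neutrophils. The Ciita call was lost when any 1 of the DM, Flt3-ITD, WT or neutrophil libraries was left out (adjusted p from 0.0525 to 0.129). The other calls were H2-DMb2 (0.26) and H2-DMa (-0.23). Since every H3K4me3 peak is 1000 bp wide, replicates often hold equal values and the estimated spread is near 0. With a spread floor of 1 peak, added after the data were seen, no gene of the table passed in any H3K4me3 comparison. Peaks present in both libraries or in neither are therefore given beside the calls.

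Ciita had 4 such places. A peak at chr16:10489167-10490379, inside the span, was present in all 10 libraries. A peak over the start of the span, chr16:10479821-10481108, was in both DM and both Flt3-ITD libraries and in no other. A peak at chr16:10475518-10476552, 3462 bp before the span, was in both DM libraries alone, and one at chr16:10487712-10488832 in both Flt3-ITD libraries alone. In DM HSPC 9.03% of all H3K4me3 regions were gained, and 3 of 30 at the members (10.0%), a share near that background. The third was in H2-DMb1 (chr17:34156008-34157149), held by both DM and both Flt3-ITD libraries and by no other. Of the 30 regions 2 were lost in DM HSPC (6.67%), against 5.93% of all regions. The lost region at chr17:34087659-34088968, in the H2-Oa window, was also absent in neutrophils. The lost region at chr17:34126993-34128275, over the H2-DMa span, was absent in DM HSPC alone.

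**Figure D4:**
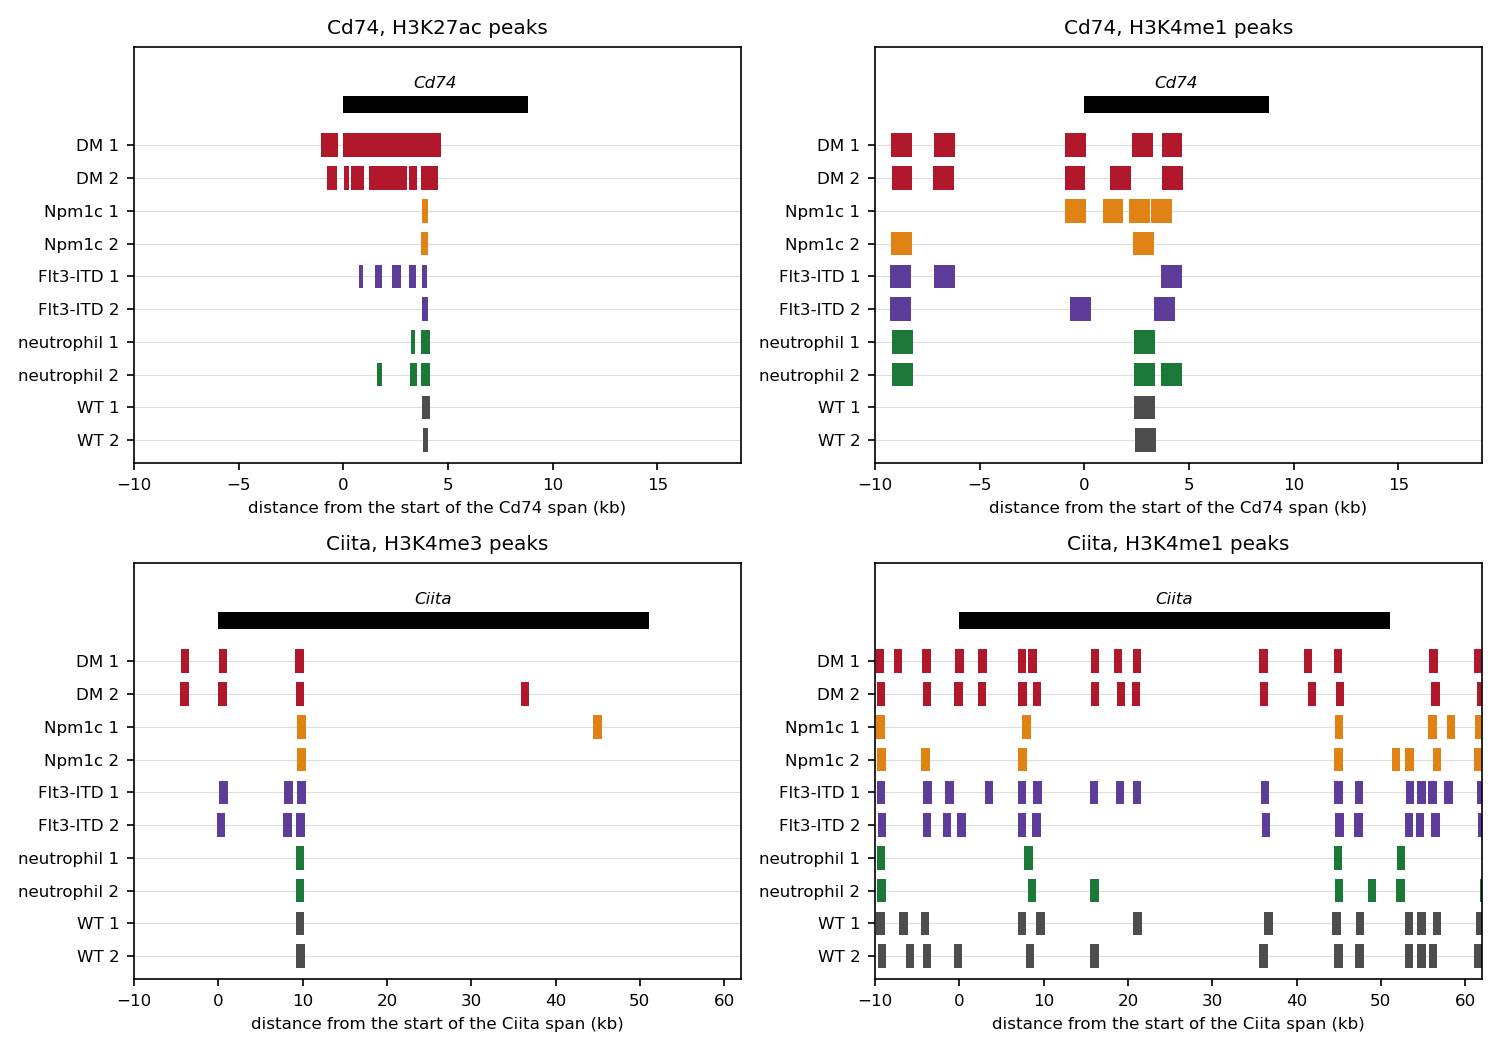
Peaks by library at Cd74 (H3K27ac and H3K4me1) and Ciita (H3K4me3 and H3K4me1), with distance from the start of each span in kb. H3K27ac covers 4.69 kb at the start of Cd74 in DM replicate 1, and the H3K4me3 peak at the start of Ciita appears in DM and Flt3-ITD HSPC.

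At the H2-Eb1 promoter, an H3K4me3 region at chr17:34305757-34306887 was present in both DM and both WT libraries and in none of the 6 libraries of Npm1c HSPC, Flt3-ITD HSPC and neutrophils. H2-Eb1 accordingly had 2 kb in each DM library, 1 kb in each Npm1c, Flt3-ITD and neutrophil library, and 2 kb in each WT library. It was called lower in Npm1c, Flt3-ITD and neutrophils against WT HSPC (-0.74 each), where 0.403%, 0.452% and 9.88% of genes fell and 0.967%, 2.27% and 6.72% rose. It was called higher in DM against Npm1c and against Flt3-ITD HSPC (0.74 each), where 3.8% and 2.03% of genes rose and 4.34% and 3.62% fell. In the interaction it was called as well (1.47), where 1.96% of genes were called higher and 3.78% lower. In neutrophils H2-Aa had no H3K4me3 peak in either library, against 1 kb in each WT library (-1.58). H2-DMb1 had none in neutrophils, against 1 and 1.54 kb in WT HSPC (-1.81), and H2-DMb2 had 1 kb in each neutrophil library, against 2 kb in each WT library (-0.74). H2-Ab1 had 2 kb in each neutrophil library, against 1 kb in each WT library, and missed the threshold (0.74; adjusted p = 0.0878). The remaining calls were H2-DMa, lower in Npm1c against WT HSPC (-0.21) and in DM against Flt3-ITD HSPC (-0.23), and H2-DMb2, higher in Flt3-ITD against WT HSPC (0.23) and in DM against Npm1c HSPC (0.26). Windows of these neighbours overlap by 5873 bp (H2-DMa and H2-DMb2) and 8363 bp (H2-DMb1 and H2-DMb2) for this mark. The region at chr17:34142693-34144242 thus counts for H2-DMa and H2-DMb2 alike, and the one at chr17:34156008-34157149 for H2-DMb1 and H2-DMb2. The one at chr17:34153066-34154634, over the H2-DMb1 span, counts for H2-DMb1 and H2-DMb2 too. It held 1000 bp in each WT library and none in neutrophils, so the neutrophil falls at H2-DMb1 and H2-DMb2 share this peak. Centred on library medians, the direction turned for H2-DMb2 in Flt3-ITD against WT HSPC (-0.07) and for H2-DMa in DM against Flt3-ITD HSPC (0.07).

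Other pathway genes were read in H3K27ac in DM against WT HSPC, where 6.94% of all tested genes rose and 6.04% fell. At unadjusted p under 0.05 (limma) there were 3764 of 13637 genes. Of 7 genes of the RFX, NF-Y and CREB factors that bind class II promoters none passed (limma; 0 at unadjusted p under 0.05), and Rfx5, the DNA-binding RFX subunit, had 2.58 and 1.34 kb in DM HSPC, against 2.01 and 1.48 kb in WT HSPC. Of 7 lysosomal processing genes 1 rose (4 at unadjusted p under 0.05), the cathepsin gene Ctsz, with 4.51 and 4.04 kb in DM HSPC, against 2.62 and 2.48 kb in WT HSPC. Ctss, the cathepsin that trims the invariant chain, had 3.58 and 1.23 kb in DM HSPC, against 0.472 and 0.686 kb in WT HSPC, and was not called. The turnover and costimulation list summed to 9.20 and 5.56 kb in DM HSPC, against 1.03 and 1.14 kb in WT HSPC. Of its 4 tested genes 1 rose (2 at unadjusted p under 0.05): Cd83, which stabilises class II molecules at the cell surface, had 5.61 and 3.94 kb in DM HSPC and no peak in WT HSPC. Of 6 neighbours in the class II region 1 rose (1 at unadjusted p under 0.05), Btnl2, a butyrophilin-like gene, with 3.28 and 2.21 kb in DM HSPC and no peak in WT HSPC. The peptide transporter gene Tap1, of the class I pathway, had 5.47 and 3.72 kb in DM HSPC, against 4.13 and 4.07 kb in WT HSPC.

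Genes of other chromosomes with H3K27ac most like H2-Aa over the 10 libraries were Cd83, Cadm1, Ror1, Kif1a and Socs2, at mean absolute differences of 0.28 to 0.33 in centred log2(bp + 500) among 12910 genes. Those most like Cd74 were Gpr55, Htr7, Slamf7, Kif1a and Ildr1, at 0.29 to 0.36 among 13300 genes. They were chosen for this likeness, and at each of them both DM libraries were the highest of the 10.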

How the data were processed

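ChIP-seq peak lists of 30 libraries (5 groups, 3 marks, 2 libraries each) were analysed; the 5 inputs, which come without a list, were set aside. The deposited files are of the unit "other": peak coordinates in 3 columns, made by the authors, with no score and no read count. Per the submitters' processing notes, mm10, Bowtie2 2.1.0, Picard, HOMER and MACS2 were used, with roles not stated; per the labels, file names carry HOMER for H3K4me1 and H3K4me3 and MACS2 for H3K27ac. No source used here gives the callers' cut-offs.

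Peaks were merged per library and the base pairs under them summed per window of each protein-coding gene on the assembled chromosomes, with spans from RefSeq GRCm38.p6. Each gene was centred on its own mean before patterns were ranked. Genes with peaks in 2 or more of a mark's 10 libraries were fitted as log2(bp + 500) over all 5 groups with limma 3.58.1 (R 4.3.3; trended empirical Bayes). Within each mark and comparison, p-values were adjusted by Benjamini and Hochberg over all genes, and 0.05 was the limit. No scaling was applied. The method was tested on simulated data. Intervals use the 95% level of that fit. Other steps used Python 3.11.15, NumPy 2.4.6, pandas 2.3.3 and matplotlib 3.10.9. The members, lists and tests were chosen with earlier results of these data known. All 10 members are named; other genes are called genes of the pathway and marker lists, up to 4 per list and comparison, and the 5 genes most like H2-Aa and Cd74; Rfx5, Ctss and Tap1 were named after their values were seen. Alternatives were centring on library medians, 2000 or 100 bp added, no coverage filter, spans without extension, lists of equal length, a replicate block, robust empirical Bayes, a wider H3K4me3 window, stricter region overlap, each library left out, and a spread floor of 1 peak chosen after seeing the data. Some genes of the marker lists are not reported here by name.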

Additional observations from a re-analysis of the deposited data

Results flagged for a closer look

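Cd74 had an interaction of Npm1c and Flt3-ITD in H3K27ac of 2.07, from 5.46 and 4.37 kb in DM HSPC, 0.301 and 0.333 kb in Npm1c HSPC, 1.54 and 0.269 kb in Flt3-ITD HSPC and 0.360 and 0.236 kb in WT HSPC. It was flagged because the Flt3-ITD difference was larger with Npm1c than without (limma, adjusted p = 0.0471).

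H2-Eb1 had an interaction in H3K4me3 of 1.47, from 2 kb in both DM libraries, 1 kb in each library of the single mutants and 2 kb in both WT libraries. It was flagged because the Flt3-ITD difference had opposite signs with and without Npm1c. The value rests on 1 peak of fixed width at the promoter, and with a spread floor of 1 peak it did not pass.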

How the results depend on the processing

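The cause of the changes given here was not tested. Counts are members called, out of 9 for H3K27ac and 10 for the other marks. When each of the 10 libraries was left out in turn, H3K27ac counts ranged from 2 to 7 for DM against WT (5 with all libraries), 0 to 6 for Npm1c against WT (2), 0 to 0 for Flt3-ITD against WT (0), 1 to 3 for neutrophils against WT (2), 3 to 5 for DM against Npm1c (5), 1 to 4 for DM against Flt3-ITD (3) and 0 to 3 for the interaction (1 higher; the 3, without DM replicate 1, are all lower, and every other call is higher). H3K4me1 counts ranged from 0 to 1 for DM, Npm1c and Flt3-ITD against WT, 0 to 2 for neutrophils against WT and for DM against Npm1c, and 0 to 0 for DM against Flt3-ITD and the interaction. H3K4me3 counts ranged from 2 to 3 for DM, Npm1c and Flt3-ITD against WT and for DM against Flt3-ITD, 4 to 5 for neutrophils against WT, 2 to 4 for DM against Npm1c and 1 to 2 for the interaction.

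Centring each library on its median gave 0 H3K27ac calls for Npm1c against WT and 3 for the interaction, and 2 H3K4me1 calls each for neutrophils against WT and DM against Npm1c. For H3K4me3 it gave 1 call each for DM against WT and DM against Npm1c, and 0 for Npm1c and Flt3-ITD against WT, DM against Flt3-ITD and the interaction, with H2-DMb2 at -0.074 (Flt3-ITD against WT) and H2-DMa at 0.072 (DM against Flt3-ITD). With 2000 bp added, H3K27ac counts were 1 for Npm1c and for neutrophils against WT and 3 for the interaction. With 100 bp added they were 3 for DM against Npm1c, 1 for DM against Flt3-ITD and 0 for the interaction, and the H3K4me1 count for neutrophils was 2. Without the filter on low coverage H3K27ac counts were 3 for DM against WT, 0 for Npm1c against WT, 1 for neutrophils against WT, 3 for DM against Npm1c, 1 for DM against Flt3-ITD and 0 for the interaction, and the H3K4me3 interaction had 2.

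Over gene spans alone H3K27ac counts were 3 for DM against Npm1c and 0 for DM against Flt3-ITD and the interaction, H3K4me1 counts 2 for DM against Npm1c and 1 for DM against Flt3-ITD and the interaction, and the H3K4me3 interaction 2. There the interaction turned direction for H2-Aa in H3K4me1 (0.71) and for H2-Oa in H3K4me3 (0.91). Differences of 0 over the windows became -0.25 for H2-Aa in H3K4me1 in neutrophils against WT, 0.74 for H2-Aa in H3K4me1 in DM against Npm1c and 0.88 for H2-Oa in H3K4me3 in DM against Npm1c. The robust fit gave 3 for DM against Npm1c in H3K27ac, 2 for neutrophils in H3K4me1 and 2 for the interaction in H3K4me3. Lists of equal length gave 0 for Npm1c against WT and 2 for the interaction in H3K27ac. The spread floor of 1 peak, chosen after seeing the data, gave 0 in all 7 H3K4me3 comparisons. With overlap of at least 50% of a region, 13 H3K27ac regions were gained in DM against WT (12 at 1 bp) and 7 in Npm1c against WT (3 at 1 bp).

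The labels do not say whether replicate numbers mark a shared batch. Deviations of same-numbered libraries correlated at -0.231 to 0.278, the highest between Flt3-ITD and DM HSPC in H3K27ac. Such correlations cannot show whether the samples were paired. With the replicate number as a block, H3K27ac counts were 1 for Npm1c against WT, 1 for DM against Flt3-ITD and 0 for the interaction, and the H3K4me1 count for DM against Npm1c was 0. Peak lists without read depth and 2 libraries a group limit all of these values.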
